A study of Mus musculus with 23 samples.

Results

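The 6 genes Grm2, Grm3, Grm4, Grm5, Grm7 and Grm8, which encode metabotropic glutamate receptors, were followed in the mouse nucleus accumbens. They were chosen by name, each was read from its probe set with a single gene symbol (the brighter one for Grm7, which has more than 1), and all 6 were found among 22180 genes with a probe set of their own. Expression was measured on 23 whole-transcript microarrays, 1 per mouse, from micropunched nucleus accumbens, the ventral part of the striatum. The mice were C57BL/6J, about 15 weeks old, and had received an injection of adeno-associated virus (AAV) into the region about 5 weeks earlier, so the controls carry a virus too. The groups were female control (scrambled hairpin, n = 5), female Nr1d1 knockdown (short hairpin RNA against Nr1d1, n = 6), male control (n = 6) and male Nr1d1 knockdown (n = 6). The labels name no promoter or target cell type for the virus, and their text on litters and a postpartum day stands on the male samples as well, so reproductive state was not used. The series describes the samples as biological replicates.

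Metabotropic glutamate receptors are G-protein-coupled receptors for the main excitatory transmitter, and they tune synapses more slowly than the glutamate-gated ion channels. Group I receptors, here Grm5, activate phospholipase C through Gq proteins and sit mostly on the postsynaptic side, where Homer proteins tether them. Group II (Grm2 and Grm3) and group III receptors (Grm4, Grm7 and Grm8) inhibit adenylyl cyclase through Gi/o proteins, and most act on axon terminals, where they limit transmitter release. The nucleus accumbens consists mainly of GABAergic medium spiny neurons, and its glutamate arrives from outside, largely from cortex, hippocampus, amygdala and thalamus. Slc17a7, the vesicular glutamate transporter VGLUT1, is made in cortical excitatory neurons and not in medium spiny neurons, so its RNA marks neighbouring tissue in a punch.

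The promoters of Grm2 and Grm8 are shown here because their r of 0.70 was the highest of any pair over all 23 arrays. That rank rested on 1 array: without male control replicate 1 their r was 0.49 and that of Grm3 and Grm7 0.65, and in females alone Grm3 and Grm7 (0.82) were also above them (0.48). The promoters are given as windows of 300 bases that run from 250 bases before to 50 bases after a transcription start, from RefSeq on GRCm38.p6. Windows were given for 4 of the 6 genes, with 1 start for Grm2 and 3 for Grm8, of which the first and last are printed. Grm2 lies at chr9:106656060-106656359 on the minus strand, and the Grm8 windows at chr6:28135097-28135396 and chr6:28126377-28126676, also on the minus strand. Capitals mark matches on either strand to AGGTCA, the half-site bound by REV-ERB and ROR receptors, to CACGTG, the E-box bound by clock activators, and to GGGCGG, the GC box.
Grm2: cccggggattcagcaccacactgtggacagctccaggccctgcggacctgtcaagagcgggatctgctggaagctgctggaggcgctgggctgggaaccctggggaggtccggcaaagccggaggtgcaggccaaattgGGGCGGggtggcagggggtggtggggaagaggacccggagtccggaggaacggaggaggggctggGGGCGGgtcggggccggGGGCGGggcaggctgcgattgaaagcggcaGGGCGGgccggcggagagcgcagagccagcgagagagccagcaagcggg
Grm8 first start: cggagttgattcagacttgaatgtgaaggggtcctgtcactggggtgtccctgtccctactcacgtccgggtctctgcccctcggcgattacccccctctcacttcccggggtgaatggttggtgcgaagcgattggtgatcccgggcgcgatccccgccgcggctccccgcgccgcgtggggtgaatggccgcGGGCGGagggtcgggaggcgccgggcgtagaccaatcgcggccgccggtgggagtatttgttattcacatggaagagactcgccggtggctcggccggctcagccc
Grm8 last start: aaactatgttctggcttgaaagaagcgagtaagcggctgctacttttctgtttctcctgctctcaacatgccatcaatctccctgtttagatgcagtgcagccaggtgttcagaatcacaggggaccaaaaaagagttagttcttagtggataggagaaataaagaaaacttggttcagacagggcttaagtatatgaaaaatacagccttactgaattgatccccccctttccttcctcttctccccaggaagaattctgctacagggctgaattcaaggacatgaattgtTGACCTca
The Grm2 window held 4 GC boxes and had a GC content of 72.0%, and the first Grm8 window held 1 GC box at 67.0%. The last Grm8 window, with a GC content of 43.3%, held the 1 AGGTCA match found in the 7 windows of these genes, on the opposite strand. None of the 7 held CACGTG. Of all 32851 promoter windows in the table, 16.3% held AGGTCA, 7.15% CACGTG and 35.7% GGGCGG. These matches describe the letters of the windows and show no binding.

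Some facts of the whole series bear on the receptors. The values are the deposited log2 intensities. Array medians lay between 6.11 and 6.17 in females and between 5.84 and 5.88 in males, an offset that also separates the receptor levels of the sexes, so a sex difference cannot be told apart from one of processing. The labelled sexes matched the arrays, with Xist at 11.4 to 11.78 in females and 3.85 to 4.12 in males. Nr1d1, which encodes the clock repressor REV-ERBα, was not detectably lower in the arrays labelled knockdown, by −0.05 (SE 0.09) in females and by −0.01 (SE 0.09) in males, both with limma adjusted p of 0.963 or more, so every knockdown direction below rests on the label. Medium spiny neuron markers were present in every array (Penk at 12.41 to 12.93, Drd2 at 10.8 to 11.76). Slc17a7 ranged from 8.92 to 11.13 in females and from 4.64 to 10.34 in males, and in bulk tissue fewer cells of a type and less RNA per cell cannot be told apart. Its mean was 7.46 in male controls and 8.63 in knockdown males, a difference of 1.17 (SE 0.85, limma adjusted p = 0.996). In females the difference was −0.11 (SE 0.89, limma adjusted p = 0.995). Male control replicates 1 and 6 stood apart in the mean of the 9 measured medium spiny neuron markers, at 10.08 and 10.15 against 10.39 to 10.48 in the other male controls. Male knockdown replicate 6 was also low in that mean, at 10.24 against 10.43 to 10.56 in the other knockdown males.

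Between mice of a group, Grm5, Grm3 and Grm7 varied less than the median probe set, while Grm2 and Grm8 varied most of the 6. Grm5, the group I receptor of striatal neurons, stood at 10.69 ± 0.08 (SD, n = 5) in female controls and 10.43 ± 0.12 (SD, n = 6) in male controls. Its residual SD between mice of a group was 0.09, against 0.14 for the median probe set. Grm3, the group II receptor that astrocytes also express, stood at 10.88 ± 0.11 (SD, n = 5) and 10.61 ± 0.04 (SD, n = 6), with a residual SD of 0.08. Grm7, a low-affinity group III receptor of the presynaptic active zone, stood at 9.67 ± 0.15 (SD, n = 5) and 9.39 ± 0.08 (SD, n = 6). The residual SD of Grm7 was 0.12, again under that of the median probe set.

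Grm4, Grm8 and Grm2 had residual SDs of 0.15, 0.21 and 0.44, above that median. Grm4, a group III receptor of striatal output terminals, stood at 7.60 ± 0.05 (SD, n = 5) in female and 7.13 ± 0.25 (SD, n = 6) in male controls. Grm8, a presynaptic group III receptor, stood at 6.27 ± 0.17 (SD, n = 5) and 6.11 ± 0.31 (SD, n = 6). Relative to the array medians these Grm8 means stood at 0.15 and 0.24, and that of the knockdown males at −0.02. Grm2, the presynaptic group II autoreceptor, stood at 7.94 ± 0.24 (SD, n = 5) and 7.38 ± 0.64 (SD, n = 6), and its residual SD was larger than that of 98% of probe sets. Levels of different probe sets are not compared, since each probe set has its own brightness.

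In the order of the group means, both female groups stood above both male groups for every receptor, and the control and knockdown groups of a sex, next to each other in that order, overlapped for all 6. The ranges of female and male controls overlapped for Grm2, Grm7 and Grm8 and not for Grm5, Grm3 and Grm4. For Grm5, Grm3 and Grm7 the difference between female and male controls was 0.27, the same as the median difference of all probe sets, and relative to each array's median it was 0, 0.02 and 0.01. Relative to that median, female controls were above male controls by 0.3 for Grm2 and 0.21 for Grm4, and below them by −0.09 for Grm8. These differences between the sexes carry no test, since sex and a difference in processing, which the array medians leave possible, cannot be told apart.

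**Figure D1:**
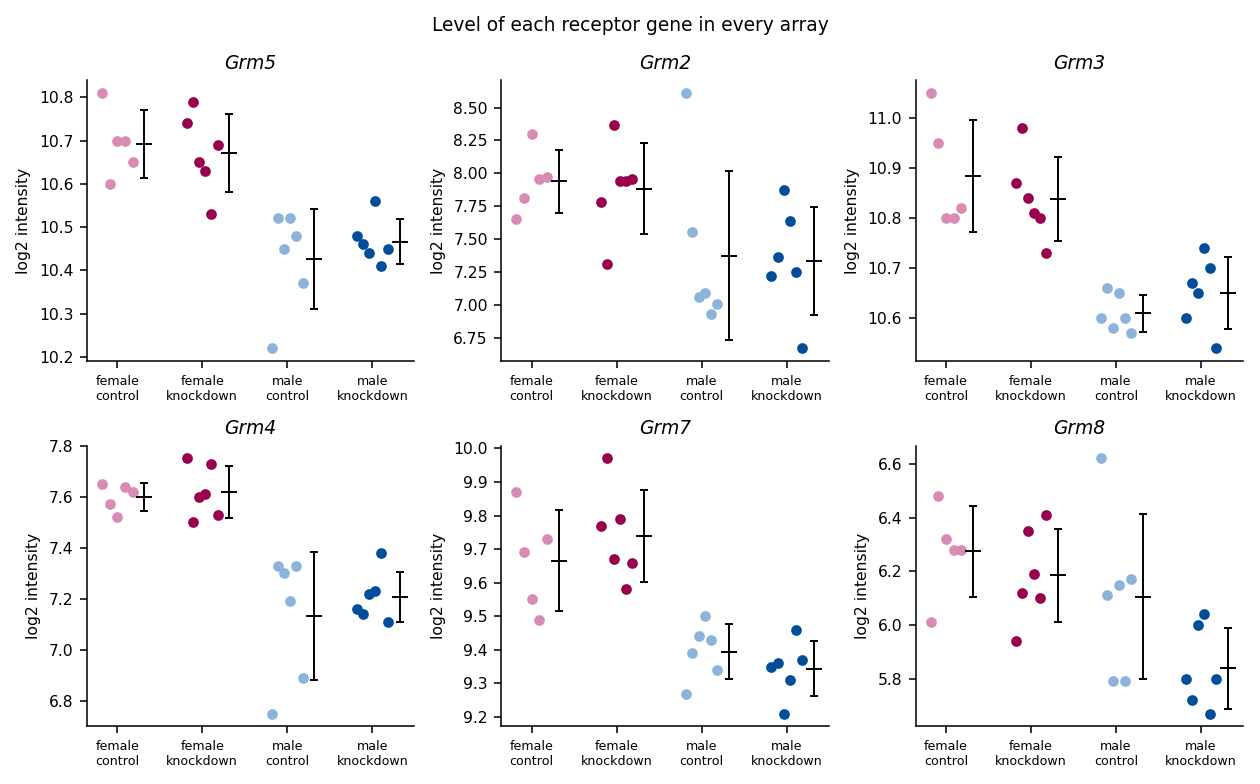
Log2 intensity of the 6 receptor genes in each of the 23 arrays, by group, with the group mean and SD as the bar beside the points. The male control points of Grm2 reach 8.61 and those of Grm8 reach 6.62, both in replicate 1, while control and knockdown points overlap in each panel.

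No receptor gene differed between arrays labelled knockdown and control past the threshold of an adjusted p of 0.05 in either sex, and no other probe set did. In females 2 of the 6 receptors were higher and 4 lower, with a median of −0.033 against 0 for all genes. In males 3 were higher and 3 lower, with a median of 0 against 0.003. By limma with Benjamini-Hochberg adjustment 0 of 41345 probe sets were called in either sex (0%), and the smallest adjusted p of a member was 0.933 in females and 0.996 in males. With no adjustment, p lay under 0.05 for 0 of 6 members in females, against 5.86% of all probe sets, and for 1 in males, against 4.71%.

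That 1 member was Grm8. Its level in the male controls ran from 5.79 to 6.62 with a median of 6.13, and in the males labelled knockdown from 5.67 to 6.04 with a median of 5.8. All 6 knockdown males lay below the control mean, but the groups overlapped, and the highest control was replicate 1. The difference was −0.27 (SE 0.12, 95% interval −0.51 to −0.03), with a limma adjusted p of 0.996 and a two-sided exact permutation p of 0.0758. In females the Grm8 values were 6.01, 6.48, 6.32, 6.28 and 6.28 in the controls and 5.94 to 6.41 with a median of 6.155 in the knockdown group, a difference of −0.09 (SE 0.12). Averaged over both sexes it was −0.18 (SE 0.08), on the lower side in 10 of 12 mice, with a limma adjusted p of 0.98. Without male control replicate 1 the male difference was −0.164, and without control replicates 1 and 6 together it was −0.122, with all knockdown arrays kept. With Slc17a7 as a covariate it was −0.353 (limma adjusted p = 0.92). Cortical markers (10 of 12 measured, among them Slc17a7) had list means of 6.61 to 8.56 in male controls and 6.70 to 8.18 in knockdown males, and medium spiny neuron markers (9 of 12 measured) 10.08 to 10.48 and 10.24 to 10.56. In the males labelled knockdown 9 of the 10 cortical and 9 of the 9 medium spiny neuron markers were on the higher side, with 0 called in either list. Their part in the Grm8 difference was not tested beyond these values.

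The other receptors gave narrower or wider bounds around 0. For Grm5 the difference was −0.02 (95% interval −0.14 to 0.10) in females and 0.04 (−0.07 to 0.15) in males. For Grm3 it was −0.05 (−0.16 to 0.06) and 0.04 (−0.06 to 0.14), so in either sex the interval for these genes excluded changes beyond 0.16. Grm7 stood at 0.07 (−0.07 to 0.22) and −0.05 (−0.19 to 0.09), and its dimmer probe set at −0.05 (SE 0.08) and −0.09 (SE 0.08). Grm4 stood at 0.02 (−0.16 to 0.20) and 0.08 (−0.10 to 0.25). For Grm2 the differences of −0.05 and −0.04 had intervals of −0.57 to 0.46 and −0.53 to 0.45, and no change within those bounds was detectable. The male Grm2 difference became 0.207 without male control replicate 1, 0.178 without replicates 1 and 6 and −0.309 with Slc17a7 as a covariate (limma adjusted p = 0.98, 0.999 and 0.989). The male minus female difference of the knockdown effect was called for 0 of 6 members and 0 of 41345 probe sets (0%), and 0 of 6 against 5.7% with no adjustment, with the smallest member p for Grm7, at −0.13 (SE 0.10, limma adjusted p = 0.931).

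**Figure D2:**
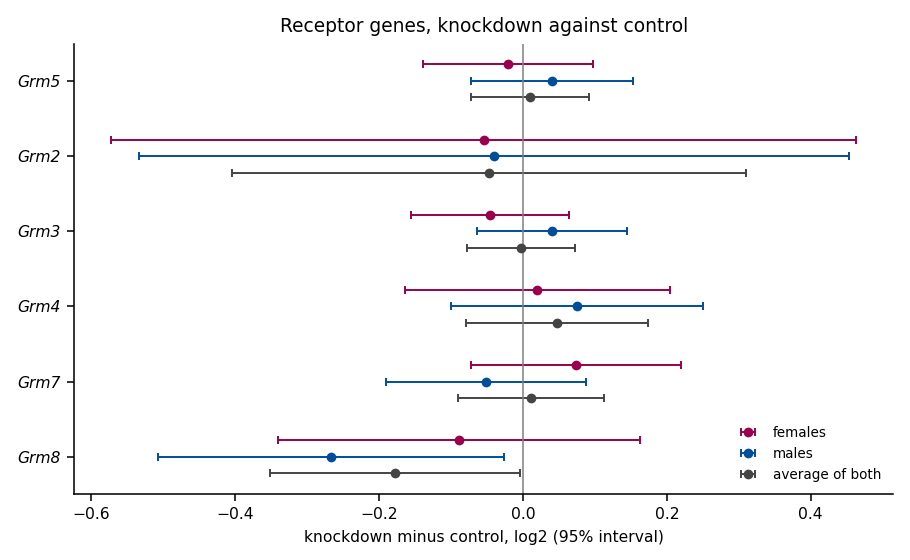
Difference of the group means, knockdown minus control, on the log2 scale for each receptor gene in females, in males and averaged over both, with 95% intervals from limma. The male interval of Grm8 runs from −0.51 to −0.03, and those of Grm2 are the widest of the 6 genes.

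Grm2 rose and fell with Slc17a7 between the mice of a group, in both sexes, and it was the only 1 of the 6 receptors whose slope passed the threshold over all 23 arrays. In the female controls, Slc17a7 stood at 9.4, 10.46, 11.05, 10.57 and 10.48 in replicates 1 to 5, and Grm2 at 7.65, 7.81, 8.3, 7.96 and 7.97. The control with the least Slc17a7 thus had the least Grm2, and the one with the most had the most. In the knockdown females Grm2 ran from 7.31, in replicate 2 with the lowest Slc17a7 (8.92), to 8.37, in replicate 3 with the highest (11.13). In the knockdown males the lowest Grm2 (6.67) was in replicate 6, with Slc17a7 at 5.37, and the highest (7.87) in replicate 3, with Slc17a7 at 9.97. In the male controls Grm2 stood at 8.61 and 7.55 in replicates 1 and 2, with Slc17a7 at 10.34 and 10.18, and at 6.93 to 7.09 in the other 4, with Slc17a7 at 4.64 to 8.01.

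Fitted with 1 mean per group and a common slope, Grm2 was higher by 0.23 per log2 unit of Slc17a7 (SE 0.03, 95% interval 0.16 to 0.30, limma adjusted p = 0.00042). Of the 41344 probe sets tested 1.55% had a called positive slope and 1.6% a called negative one (3.15% in all), and Grm2 ranked 127 of 22179 genes by p. With no adjustment, 2 of 6 members (Grm2 and Grm8) had a p under 0.05, against 13.9% of probe sets. Group-centred Pearson r was 0.94 in the 11 female arrays (Spearman rho 0.88, permutation p = 0.00024 and 0.00072) and 0.82 in the 12 male arrays (rho 0.89, permutation p = 0.00015 and 0.00016), among 12 relations computed of 6 receptors in each sex. Without the 2 arrays farthest from the median Slc17a7 of the sex, r was 0.89 (permutation p = 0.0014) and 0.79 (permutation p = 0.0111). Within single groups of 6, r was 0.96 in knockdown females, 0.78 in male controls and 0.92 in knockdown males (exact permutation p = 0.00278, 0.0111 and 0.00833). By rank, rho was 0.99, 0.83 and 0.77 in the same order (exact permutation p = 0.00556, 0.0583 and 0.103). These were among 18 relations computed within single groups. The male Slc17a7 levels fell into a low run of 4 arrays (4.64 to 6.17) and a high run of 8, and within the 8 r was 0.8 (permutation p = 0.111). In the low run only male control replicate 5 (6.17) lay above the male array medians of 5.84 to 5.88. The male slope thus spans dim Slc17a7 values.

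By sex, the Grm2 slope was 0.41 (SE 0.11, limma adjusted p = 0.149) in females and 0.21 (SE 0.04, limma adjusted p = 0.00124) in males, where 0.414% and 2.64% of probe sets were called. In females 0 of 6 members were called higher and 0 lower, against 0.336% and 0.0774% of probe sets. In males 1 was called higher and 0 lower, against 1.24% and 1.41%. The common slope lay between 0.178, without male control replicate 1, and 0.267, without male control replicate 2, and was called in each of the 23 runs that left out 1 array. In the control arrays alone it was 0.213 and not called (limma adjusted p = 0.106). Against the mean of the other 9 measured cortical markers in place of Slc17a7 it was 0.908 (limma adjusted p = 1.3e-07). Of these 9 markers 8 had positive slopes on Slc17a7 themselves and 1 a negative one, and 5 positive slopes were called, against 2.4% of all genes. Among the 5 were the cortical transcription factor genes Neurod6 at 0.60 (SE 0.05) and Tbr1 at 0.44 (SE 0.05). Rasgrf2 stood at −0.04 (SE 0.02, limma adjusted p = 0.498) and Lamp5 at 0.01 (SE 0.02, limma adjusted p = 0.891). The markers named here were chosen after their values were seen.

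**Figure D3:**
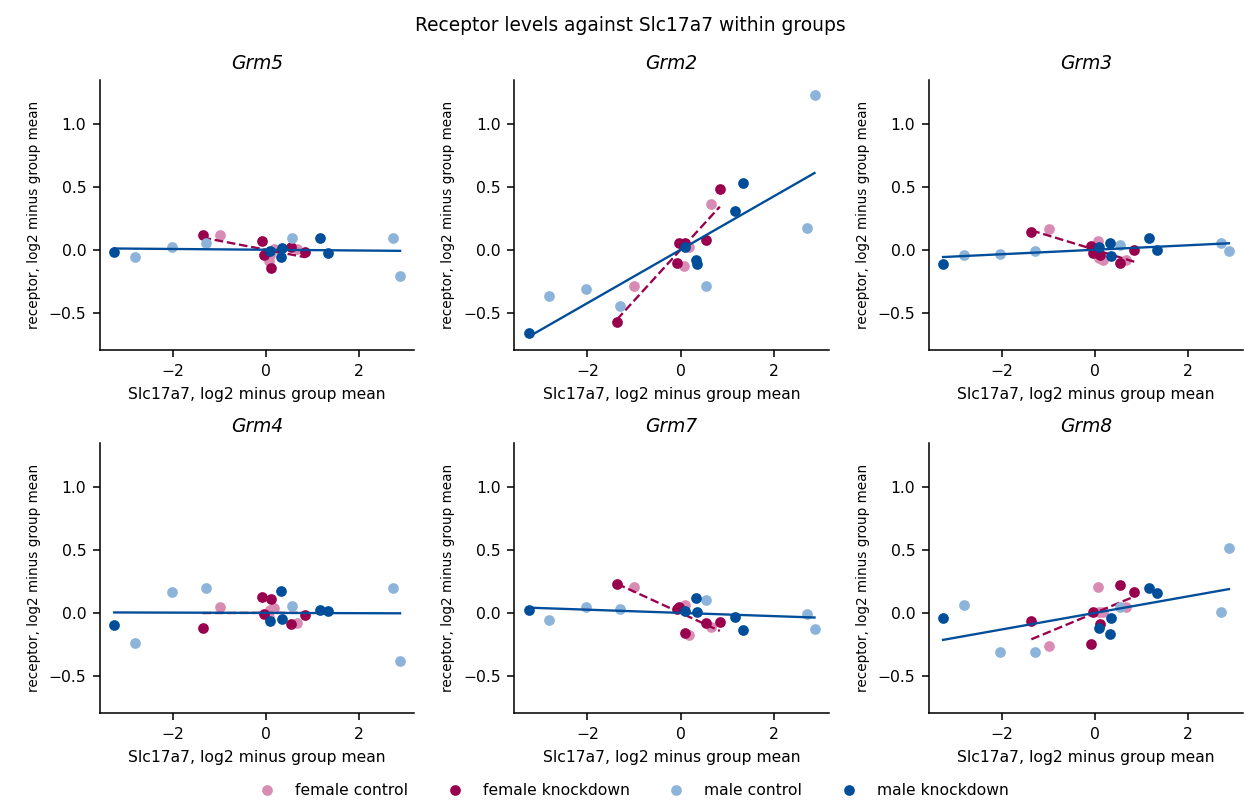
Log2 level of each receptor gene against that of Slc17a7, both as differences from the mean of the array's group, with a dashed line for the slope in females and a solid line for that in males. The lines rise in both sexes for Grm2 (0.41 and 0.21) and Grm8 (0.15 and 0.07), while for Grm3 the female line falls (−0.11) and the male line is nearly flat (0.02).

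Grm8 had the next largest slope, and the other 4 had none that passed. The Grm8 slope was 0.07 (SE 0.02, limma adjusted p = 0.131), with r of 0.63 in females (permutation p = 0.0551) and 0.57 in males (permutation p = 0.0948). It passed with the mean of the other cortical markers as the measure (0.322, adjusted p = 0.0141), without the 2 arrays of each sex farthest from the median Slc17a7 (0.143, adjusted p = 0.0192) and without male control replicate 6 (0.098, adjusted p = 0.0466), all by limma. Without male control replicate 1 the slope was 0.046 (limma adjusted p = 0.497). Group-centred r of Grm8 with the mean of the cortical markers was 0.66 in females and 0.69 in males. With the mean of 6 markers of septum and other neighbours it was 0.82 and 0.42, and neither relation was tested.

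Grm3 and Grm7 had negative slopes on Slc17a7 in the female arrays, and neither passed over all probe sets in the fit without array weights or a filter. In the 5 female controls Grm3 stood at 11.05, 10.95, 10.8, 10.8 and 10.82 in replicates 1 to 5, and Grm7 at 9.87, 9.69, 9.55, 9.49 and 9.73. Replicate 1, with the least Slc17a7, was the highest in both. The knockdown females ran from 10.73 to 10.98 for Grm3 and from 9.58 to 9.97 for Grm7, and replicate 2, with the least Slc17a7 of that group, again held both highest values. The female slopes were −0.11 (SE 0.03, limma adjusted p = 0.189) for Grm3 and −0.17 (SE 0.04, limma adjusted p = 0.106) for Grm7, with r of −0.81 (permutation p = 0.00656) and −0.83 (permutation p = 0.00451). Both relations rested on the arrays with the least Slc17a7, female control replicate 1 and female knockdown replicate 2, since without these r was −0.36 (permutation p = 0.359) and −0.45 (permutation p = 0.228). The female Grm7 slope passed with array weights (−0.175, limma adjusted p = 0.043) and among probe sets above the median mean (−0.17, limma adjusted p = 0.0434). The dimmer Grm7 probe set had a female slope of −0.13 (SE 0.06, limma adjusted p = 0.513). Medium spiny neuron markers fell with Slc17a7 in the same arrays in 9 of 9, with 0 called and a median slope of −0.104 against 0.004 for all genes, and their part in these relations was not tested.

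In males the slopes were 0.02 (SE 0.01, limma adjusted p = 0.526) for Grm3 and −0.01 (SE 0.01, limma adjusted p = 0.794) for Grm7. The dimmer Grm7 probe set had a male slope of −0.04 (SE 0.02, limma adjusted p = 0.367). Its male minus female difference of the slopes was 0.09 (SE 0.06, limma adjusted p = 0.897). The r of Grm3 was 0.66 (permutation p = 0.012), and 0.37 (permutation p = 0.229) without the 2 farthest arrays, male control replicate 6 and male knockdown replicate 6. For Grm7 it was −0.33 (permutation p = 0.323), −0.56 without the 2 farthest arrays (permutation p = 0.0787) and −0.81 within the 8 arrays of the high Slc17a7 run (permutation p = 0.0213). For Grm3 it was 0 within those 8 (permutation p = 0.992). The male minus female difference of the slopes was 0.13 (SE 0.03, limma adjusted p = 0.32) for Grm3 and 0.16 (SE 0.05, limma adjusted p = 0.406) for Grm7, so neither difference passed, with 1 of 41344 probe sets called (0.00242%). With no adjustment these 2 of the 6 members had a p under 0.05, against 6.23% of probe sets. Grm7 passed with a common slope of −0.129 (limma adjusted p = 0.0293) when the 4 male arrays with Slc17a7 under 7 were left out.

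Grm5 and Grm4 showed no common slope, at −0.01 (95% interval −0.04 to 0.02) and −0.001 (−0.05 to 0.04). For Grm5, r was −0.58 in females and −0.07 in males (permutation p = 0.0873 and 0.889), and for Grm4 0.01 and −0.01 (permutation p = 0.989 and 0.972). In male control replicate 1, the male array with the most Slc17a7, Grm5 (10.22) and Grm4 (6.75) were at their lowest of all 23 arrays, Grm8 (6.62) and Grm2 (8.61) at their highest. Without that array the male r was 0.59 for Grm5 (permutation p = 0.0717) and 0.51 for Grm4 (permutation p = 0.154).

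Among the receptors, Grm2 and Grm8 varied together, and both ran opposite to Grm7. Over the 23 group-centred arrays, which share mice, punches and processing, r was 0.70 between Grm2 and Grm8 (0.48 in females and 0.79 in males), −0.61 between Grm2 and Grm7, −0.51 between Grm7 and Grm8, and −0.69 between Grm4 and Grm8. Grm3 and Grm7 had an r of 0.63 (0.82 in females and 0.12 in males). Without male control replicate 1 these 5 were, in the same order, 0.49, −0.61, −0.44, −0.49 and 0.65. Grm5 and Grm7 had an r of 0.53 (0.61 in females, 0.47 in males), and 0.48 without that array. Grm5 also ran opposite to Grm2 (−0.49) and Grm8 (−0.48), with −0.13 and −0.17 without that array. Against the mean of the medium spiny neuron markers, r of Grm4 was 0.26 in females and 0.93 in males, and that of Grm2 −0.84 and −0.25. For Grm3 it was 0.82 and 0.48, for Grm8 −0.67 and −0.66, for Grm5 0.42 and 0.64, and for Grm7 0.64 and 0.49. Against astrocyte markers, r of Grm3 was −0.1 and −0.47. These correlations are descriptions.

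**Figure D4:**
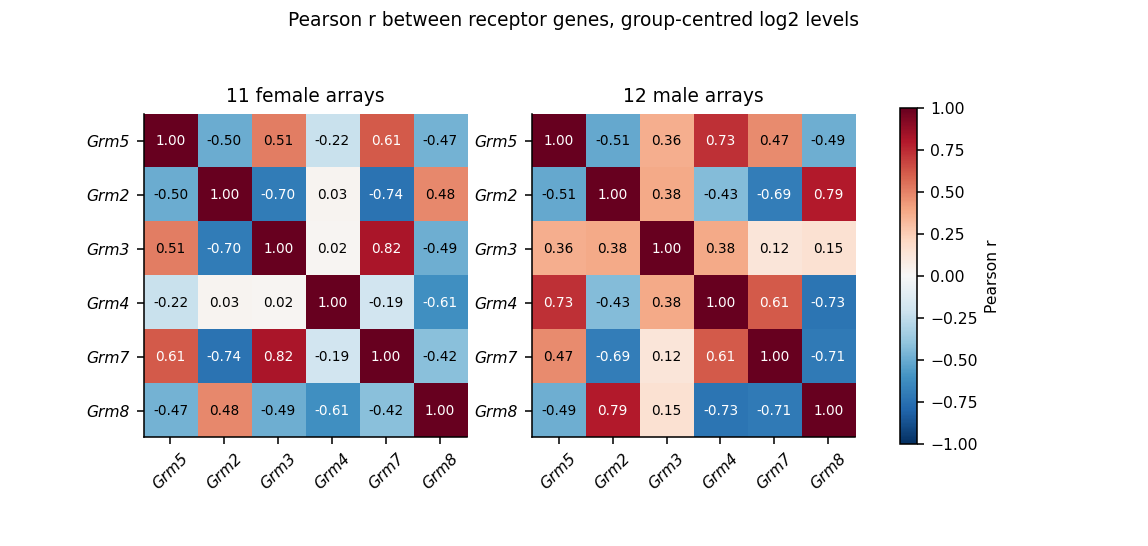
Pearson r between the group-centred log2 levels of each pair of receptor genes, in the 11 female arrays (left) and the 12 male arrays (right), from blue (−1) to red (1). Grm2 with Grm8 is red in both (0.48 and 0.79) and Grm2 with Grm7 blue in both (−0.74 and −0.69), while Grm2 with Grm3 turns from −0.70 in females to 0.38 in males.

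The genes whose group-centred levels followed each receptor most closely, by Pearson r over the 23 arrays and among 22179 genes, differed from receptor to receptor. For Grm2 they were Cckbr, the cholecystokinin B receptor, at 0.947, Adcy1, a calcium-stimulated adenylyl cyclase, at 0.940, and Stx1a, a syntaxin of the vesicle fusion machinery, at 0.932. For Grm4 they were Lingo3 at 0.89, Syndig1l, which is enriched in striatum, at 0.883, and Doc2b, a calcium sensor of vesicle release, at 0.852. For Grm8 they were 4930447C04Rik at 0.877, Atp6v1a, a subunit of the vesicular proton pump, at 0.855, and Oxr1, an oxidation resistance gene, at 0.854. For Grm5 they were Ppp2r2a, a regulatory subunit of protein phosphatase 2A, at 0.867, Calb1, the calcium buffer calbindin, at 0.812, and Map4k5 at 0.796. For Grm3 they were the potassium channel gene Kcna4 at 0.783, Plekha5 at 0.765 and the mismatch repair gene Msh3 at 0.76. For Grm7 they were Clec12a, an immune lectin receptor, at 0.864, Dhx40 at 0.819 and Zfp407 at 0.801. Some of these r values differed between the sexes. The largest gaps were for Plekha5 with Grm3 (0.953 in females, 0.407 in males) and Doc2b with Grm4 (0.49 and 0.912). Values without male control replicate 1 were not computed for these genes.

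Genes that work with these receptors were taken from a list of 55, and 51 of these were measured by a probe set with a single symbol. In the knockdown comparisons 0 of 51 passed in females and 0 in males, with medians of −0.004 and 0.033 against 0 and 0.003 for all genes. The smallest p was that of the vesicular glutamate transporter Slc17a8 in females, at −0.185 (SE 0.06, lower in 6 of 6 mice, limma adjusted p = 0.839), and of the G-protein regulator Rgs2 in males, at 0.115 (SE 0.06, higher in 5 of 6 mice, limma adjusted p = 0.996). Averaged over both it was that of the regulator Rgs7, at −0.07 (SE 0.04, limma adjusted p = 0.98). For the male minus female difference it was again Slc17a8, at 0.22 (SE 0.09, limma adjusted p = 0.852).

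On Slc17a7, 12 of the 51 had a called positive slope and 1 a called negative one, beside 2.4% and 2.2% of all genes, and the median slope was 0.014 against 0. Adcy1, the cyclase that follows Grm2, rose by 0.27 per log2 unit (SE 0.03, limma adjusted p = 5.95e-06). The diacylglycerol kinase Dgkz, which ends a signal of group I receptors, rose by 0.09 (SE 0.01, limma adjusted p = 0.00122). The scaffold Dlgap1 and the guanine exchange factor Cyth2 rose by 0.13 (SE 0.02) and 0.09 (SE 0.02), each with a limma adjusted p of 0.00135. Elfn1, a postsynaptic adhesion protein that binds group III receptors across the cleft, was the member that fell, with a slope of −0.13 (SE 0.02, limma adjusted p = 0.000616). Homer2 and Homer1, the scaffolds of group I receptors, which were picked after their values were seen, rose by 0.18 (SE 0.03) and 0.07 (SE 0.01). In females alone 2 of the 51 (Dlgap1 and Adcy1) were called higher and 0 lower, against 0.559% and 0.0947% of all genes. In males 11 were called higher and 2 lower, against 1.93% and 1.98% of all genes. The 2 lower ones were Elfn1 and the channel gene Trpc5, the latter also picked after its values were seen.

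**Figure D5:**
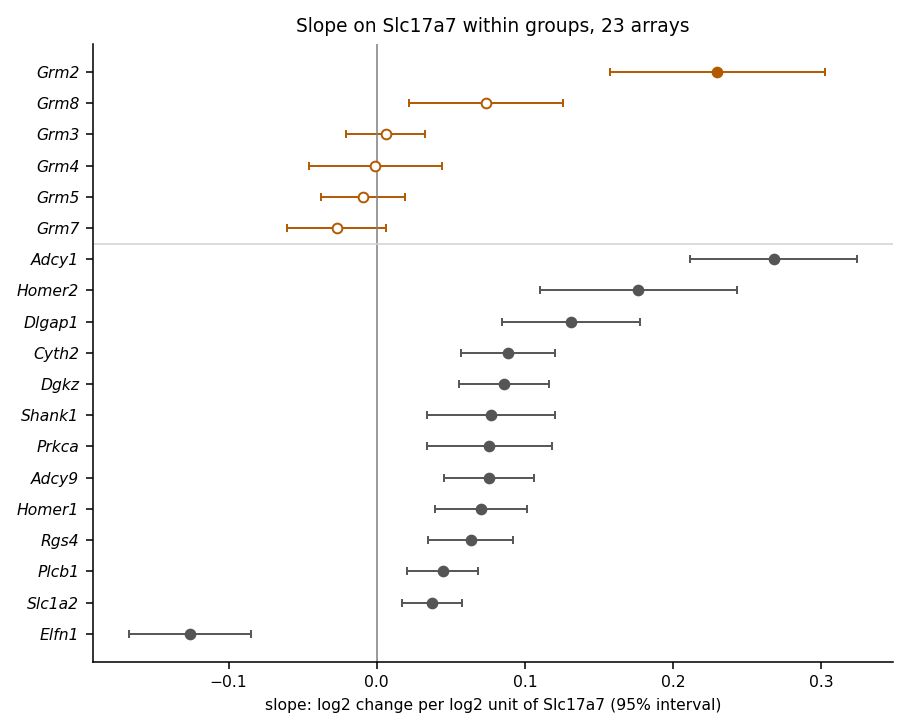
Slope of log2 level on that of Slc17a7 within groups, over 23 arrays, with 95% intervals, for the 6 receptor genes (upper, orange) and the 13 genes of the pathway list with a called slope (lower, grey). Filled points passed the adjusted threshold, which Grm2 did at 0.23 and the other receptors did not, and Elfn1 at −0.13 lies on the other side of 0.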

How the data were processed

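The data are 23 arrays of RNA from micropunched nucleus accumbens. Per the labels' protocols, cDNA was made from 150 ng of total RNA. The authors deposited a log2 intensity for each of 41345 probe sets, made with Transcriptome Analysis Console per the submitters' processing notes. Its version, the normalization and the build were not given in these sources. Of the probe sets, 23521 carried 1 symbol in the array annotation, 1814 carried several and 16010 carried none, and a gene was read from its probe set with the highest mean.

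Groups were taken from sample titles. limma 3.58.1 in R 4.3.3 fitted 1 mean per group over all 23 arrays (19 residual and 3.24 prior degrees of freedom), with two-sided tests and Benjamini-Hochberg adjustment over all probe sets. Slopes added the log2 level of Slc17a7, whose own probe set was left out of the adjustment. Permutation p values of correlations shuffled Slc17a7 within groups (100000 draws), and groups of 6 and knockdown differences were enumerated exactly. Scripts were tested on simulated data. Precision is limited by how many arrays there are, and the limma p values judge differences and slopes against the spread between these mice.

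The members, lists and rules were chosen with earlier results of these data known. The named genes are the members, Nr1d1, Slc17a7, the pathway genes with the smallest p (up to 4 called in each direction for the slope) and the 3 genes most like each member. The sample titles give replicate numbers and name no pairs. Deviations of same-numbered arrays correlated at −0.096 to 0.135. Arrays with different numbers were not compared in this way, so these values cannot decide whether the numbers pair the samples. Alternatives were quantile normalization, array weights, a filter on dim probe sets, separate fits, covariates, a replicate block, other measures of cortical RNA and leaving out arrays.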

Additional observations from a re-analysis of the deposited data

Results flagged for a closer look

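Of 36 sets of values (the 6 receptors, the dimmer Grm7 probe set, Slc17a7 and Nr1d1 in each of 4 groups) 3 held an array far from the others of its group, where chance alone would mark about 1 in 20. Grm2 stood at 8.61 in male control replicate 1, against 6.93 to 7.55 in the other male controls. Slc17a7 stood at 5.37 in male knockdown replicate 6, against 8.72 to 9.97 in the other knockdown males. Nr1d1 stood at 9.93 in female control replicate 4, against 10.05 to 10.09 in the other female controls.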

How the results depend on the processing

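The Grm2 slope on Slc17a7 was called in every run without 1 array (0.178 to 0.267). It was not called with a replicate block (0.278, limma adjusted p = 0.0744) or in control arrays alone (0.213). Whether the replicate numbers pair the samples is not known, and both fits have fewer residual degrees of freedom. The common slope called 1301 probe sets, against 821 to 1438 without 1 array, 152 with the replicate block, 697 without the 2 farthest arrays of each sex, 179 in control and 27 in knockdown arrays alone, and 842 without the male arrays with Slc17a7 under 7. Members called by it numbered 1 to 2 without 1 array, 0 with the replicate block and in controls alone, and 2 with other cortical markers, without the farthest arrays or without the low male arrays. In females it was 0 to 1 without 1 array, and 1 with array weights or the filter on dim probe sets (Grm7) or with other cortical markers (Grm2). In males it was 0 with the replicate block, in controls alone and in knockdown arrays alone, and 2 without the farthest arrays. The knockdown comparisons called 0 to 1 probe sets without 1 array; leaving out male control replicates 1 and 6 (chosen after seeing the data, like the low male arrays) gave 1 in males and 1 for the difference, as did array weights for the difference.

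Small knockdown differences changed sign. Without male controls 1 and 6 the male values were 0.178 (Grm2), −0.081 (Grm4) and −0.026 (Grm5), and the averages 0.061 (Grm2), −0.03 (Grm4), −0.023 (Grm5) and −0.011 (Grm7). The average of Grm3 was 0.006 after quantile normalization, 0 with array weights and 0.008 with the replicate block. The dimmer Grm7 probe set gave −0.066 on average and −0.046 in females. The Grm3 slope was −0.008 with other cortical markers and −0.055 without the low male arrays (0 in males), and the Grm4 slope 0.003 after quantile normalization and 0.029 in knockdown arrays. Without 1 array, averages ran from −0.101 to 0.076 (Grm2), −0.017 to 0.018 (Grm3), −0.011 to 0.025 (Grm5) and −0.012 to 0.037 (Grm7). Female values ran from −0.152 to 0.06 (Grm2), −0.006 to 0.044 (Grm4) and −0.044 to 0.009 (Grm5), and male values from −0.147 to 0.207 (Grm2), −0.001 to 0.115 (Grm4) and −0.001 to 0.059 (Grm5). Slopes ran from −0.004 to 0.011 (Grm3), −0.022 to 0.033 (Grm4) and −0.019 to 0.007 (Grm5). No receptor was called for knockdown under any of these settings. The causes were not tested. Separate fits per sex gave no averaged value.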
